A study of Mus musculus with 8 samples.

Results

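The genes described here are 31 genes of mitochondrial and peroxisomal fatty acid oxidation, chosen by name from the carnitine shuttle, the enzymes of beta-oxidation, the electron transfer flavoprotein and the peroxisomal enzymes. All 31 were among the 15853 genes measured, and all 31 had an adjusted p. They were read in mouse bone marrow-derived macrophages, grown for 7 days in medium conditioned by L929 fibroblasts, a source of the macrophage growth factor M-CSF, and then exposed for 24 h to 250 uM palmitate (C16:0) with 25 mM glucose and 10 nM insulin. Palmitate is a saturated fatty acid broken down by beta-oxidation, while some of the 31 genes serve branched or unsaturated chains. The control group had 4 libraries of genotype Mirc11fl/fl, Mirc22fl/fl, Lyz2+/+, and the knockout group had 4 libraries of genotype Mirc11fl/fl, Mirc22fl/fl, Lyz2Cre/Cre. Both groups therefore carried loxP-flanked alleles of the Mirc11 and Mirc22 clusters, the sources of miR-23, miR-24 and miR-27. The knockout group alone carried Cre recombinase, inserted in both copies of the myeloid gene Lyz2, so loss of the miRNAs, Cre and loss of Lyz2 cannot be told apart. The design text calls the libraries biological replicates but names no animals, so the p-values reflect sample-to-sample spread, part of which can be technical.

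Fatty acid oxidation shortens an acyl-CoA from its carboxyl end, releasing acetyl-CoA, NADH and reduced flavin at each turn. Palmitate enters mitochondria as an acylcarnitine, and that entry is held back by malonyl-CoA. Acyl-CoA dehydrogenases open each turn and pass their electrons through the electron transfer flavoprotein to ubiquinone, and a hydratase, a dehydrogenase and a thiolase complete it. Peroxisomes run a parallel pathway for very long and branched chains and hand shortened products to mitochondria as carnitine esters. In macrophages the pathway is one way to dispose of lipid taken up from the surroundings.

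Each gene was described by the authors' comparison of knockout with control: a mean normalized count over all libraries, a log2 fold change with its standard error (SE), and an adjusted p. A gene was called at an adjusted p under 0.05. Values of single libraries were not used, because the names of their columns match no sample label, so whether libraries of the groups overlap cannot be stated. Group means given here were derived from the mean and the fold change, taking groups of equal size. The header of the comparison does not name the numerator. The direction was read from Lyz2, which carries the Cre insertion and had a log2 fold change of -9.10 (SE 0.42, DESeq2 adjusted p = 6.25e-102) by the authors' deposited table, so a value below 0 was read as lower in knockout.

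Transcripts of fatty acid oxidation enzymes differed little between knockout and control macrophages. Of the 31 genes, 5 were called higher in knockout, Acat1, Etfa, Ehhadh, Hsd17b4 and Hadha, and 1 was called lower, Acaa2. That is 16.1% higher and 3.23% lower, against 11.3% and 11.7% of the 14619 genes tested. In either direction 19.4% were called, against 23.0% of all genes, so the count of calls was near the background. The median log2 fold change was -0.0077, against -0.0040 for all genes, with 15 genes above 0 and 16 below. The changes were also small in size: the median absolute log2 fold change was 0.093, against 0.19 for all genes, and 12.9% of the 31 genes moved by more than 0.2, against 47.7% of all genes. The 31 genes were more abundant than most, with a median mean normalized count of 3651 against 1172, and their median SE was 0.069 against 0.12. The contrasts in size with all genes were therefore not made at like abundance or like SE. Summed over the 31 genes, the derived mean normalized counts were 148913 in control and 150194 in knockout, a ratio of 1.01. In the same comparison 11 of 12 stromal markers were called higher, with a median of 1.88, and their part in the small changes of these genes was not tested. In bulk RNA, fewer cells of a type and less RNA per cell cannot be told apart.

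The 95% interval of the fold change lay within 1.5-fold in either direction for 29 of the 31 genes, and within 1.2-fold for 20 of them. The 2 genes whose interval reached past 1.5-fold were Acat1 and Ehhadh. A missed call does not show that the groups were alike, and the interval gives the size of change that these data allow.

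**Figure D1:**
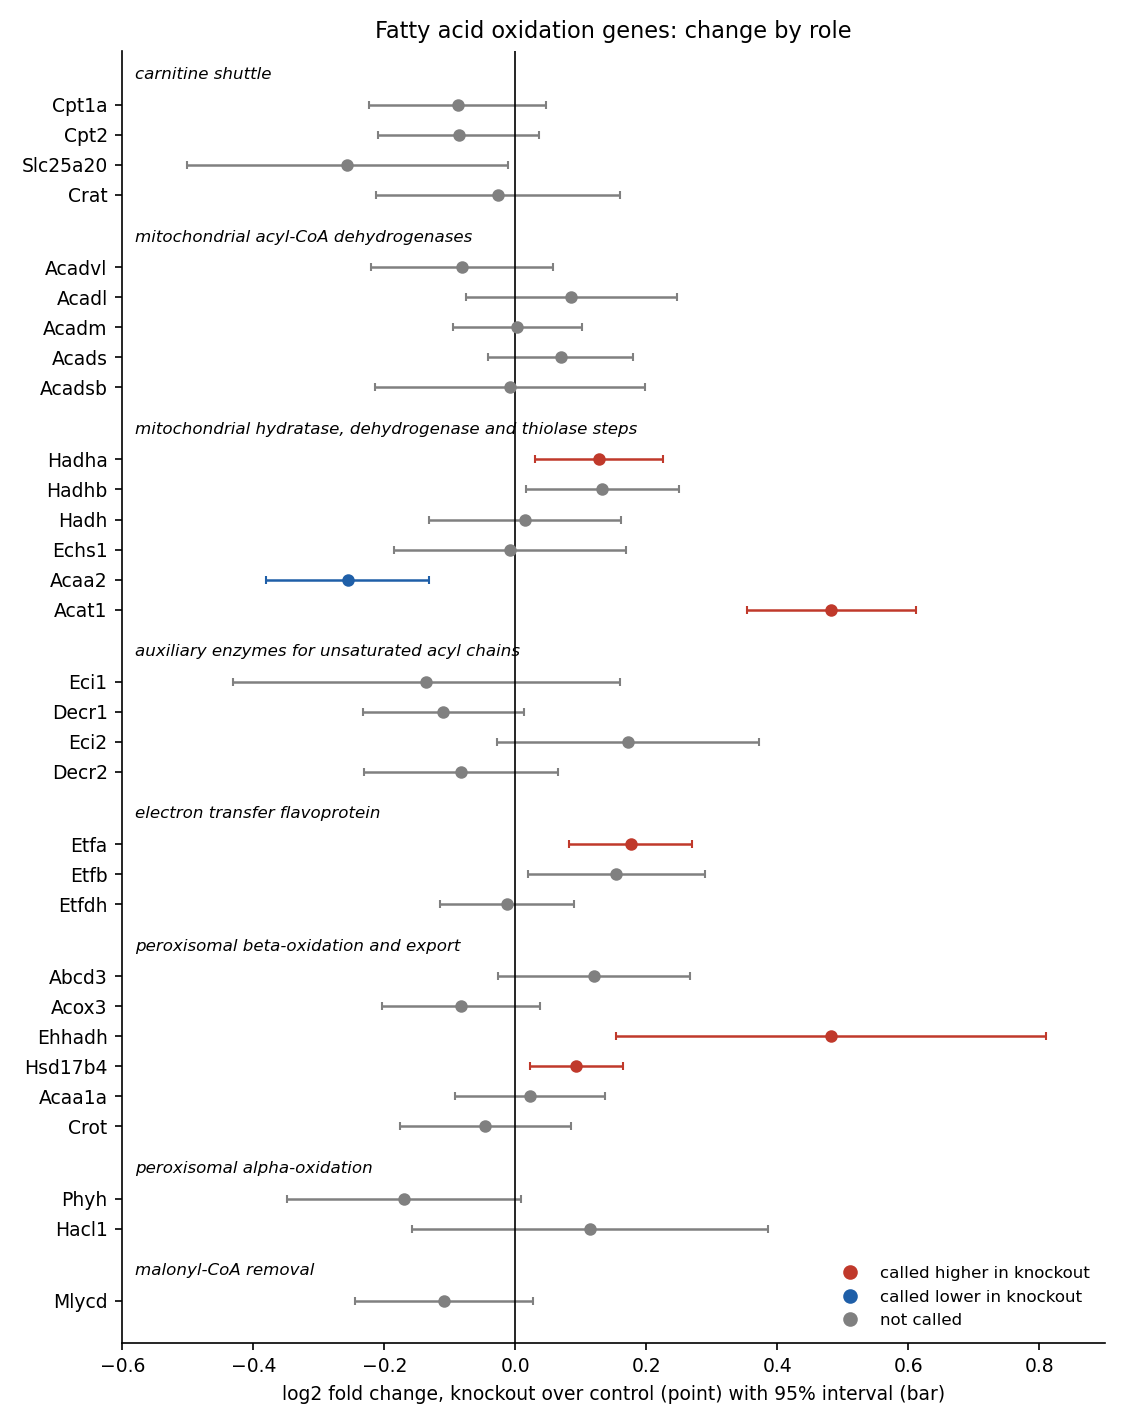
Log2 fold change of each of the 31 genes, knockout over control (x axis, log2 units), as points with 95% intervals as bars, grouped by role. The genes called higher are red and Acaa2, called lower, is blue; Acat1 and Ehhadh stand farthest to the right, at 0.48 each, and most other intervals cross 0.

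Scaling affected the balance of calls across the table, and these genes with it. The authors' scaling gave 1651 genes higher and 1712 lower, with 49.1% of calls higher. With every fold change centred on the ratio of the summed group means (-0.063 on the log2 scale), the counts were 2339 higher and 960 lower, with 70.9% of calls higher. Under that centring 7 of the 31 genes passed as higher (16% of all genes did) and 1 as lower (6.57% of all genes), and 20 of the 31 were above 0. The 5 genes that turned from below 0 to above it were Crat, Crot, Etfdh, Echs1 and Acadsb, none of them called. The 2 added calls were Hadhb and Etfb. With Lyz2 left out of the sums the shift was -0.053, with 7 and 1 genes called again. These are 22.6% higher and 3.23% lower, against 15% and 7.15% of all genes.

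The carnitine shuttle, which carries long-chain acyl groups into the mitochondrial matrix, had 0 of its 4 genes called by DESeq2. Among all genes tested 23.0% were called. In the shuttle 1 gene, Slc25a20, had an unadjusted p under 0.05. All 4 had log2 fold changes below 0 under the authors' scaling, and Crat turned above 0, to 0.036, when fold changes were centred on summed group means. Cpt1a, the outer-membrane acyltransferase that sets the rate of entry, had a derived mean normalized count of 18359 in control and 17276 in knockout. Its log2 fold change by the authors' deposited table was -0.088 (SE 0.069, DESeq2 adjusted p = 0.376), with an interval from -0.22 to 0.047. Cpt2, the inner-membrane enzyme that returns the acyl group to CoA, was at -0.087 (SE 0.063) by the authors' deposited table, close to Cpt1a. Slc25a20, the carrier that exchanges acylcarnitine for carnitine, had derived means of 4416 in control and 3697 in knockout. At -0.26 (SE 0.13, DESeq2 adjusted p = 0.123) by the authors' deposited table, its fold change was the largest of the shuttle, and its SE was also the largest, so it missed the threshold. Crat, which moves acetyl groups between CoA and carnitine, was at -0.027 (SE 0.095) by the authors' deposited table. Mlycd, malonyl-CoA decarboxylase, which removes the inhibitor of entry, was at -0.11 (SE 0.069, DESeq2 adjusted p = 0.26) by the authors' deposited table and was not called.

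Of the 5 acyl-CoA dehydrogenases, 0 were called by DESeq2, against 23.0% of all genes tested, and 0 had an unadjusted p under 0.05. These enzymes share the first step of each turn and divide it by chain length. Acadvl, for very long chains, had derived means of 5805 in control and 5488 in knockout, and Acadl, for long chains, 6196 and 6575. The log2 fold changes of these 5 genes ran, by the authors' deposited table, from -0.081 for Acadvl (SE 0.071) to 0.086 for Acadl (SE 0.082). Acadm, the medium-chain enzyme, was the nearest to no change of the 31 genes, at 0.0034 (SE 0.050) by the authors' deposited table, with an interval from -0.095 to 0.10. Acads, for short chains, was at 0.069 (SE 0.056) and Acadsb, for short branched chains, at -0.0077 (SE 0.11) by the authors' deposited table. Centred on summed group means, Acadsb turned to 0.055. The 95% interval of each of the 5 genes lay within 1.2-fold either way.

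The electrons of those dehydrogenases pass to the electron transfer flavoprotein, a heterodimer of the products of Etfa and Etfb. Etfa was called higher, from a derived mean of 3703 in control to 4184 in knockout, with a log2 fold change of 0.18 (SE 0.048, DESeq2 adjusted p = 0.00234) by the authors' deposited table. Its partner Etfb, on another chromosome, had derived means of 3109 and 3460. Etfb lay at 0.15 (SE 0.069, DESeq2 adjusted p = 0.0889) by the authors' deposited table, 0.022 below Etfa, and missed the threshold under the authors' scaling. Etfdh, the membrane enzyme that takes the electrons on to ubiquinone, had derived means of 3666 and 3636 and a log2 fold change of -0.012 (SE 0.052) by the authors' deposited table, which turned to 0.051 with centring on summed group means. The difference between Etfdh and the 2 flavoprotein subunits was not tested. Etfa lies on chromosome 9, 55454508 to 55512243, minus strand, in the GENCODE M21 annotation of GRCm38, the assembly of mm10, which gives every position in these paragraphs.

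Among the remaining mitochondrial steps, 2 thiolase genes were called in opposite directions. Acat1, the acetoacetyl-CoA thiolase of the last turn, which also serves ketone body and isoleucine breakdown, rose from a derived mean of 2426 in control to 3390 in knockout. Its log2 fold change of 0.48 (SE 0.066, DESeq2 adjusted p = 2.41e-11) by the authors' deposited table is a 1.40-fold difference with an interval from 0.35 to 0.61 on the log2 scale. Acaa2, the mitochondrial thiolase for medium and short chains, fell from a derived mean of 3925 to 3287. By the authors' deposited table Acaa2 was at -0.26 (SE 0.064, DESeq2 adjusted p = 0.000744), with an interval from -0.38 to -0.13. The intervals of Acat1 and Acaa2 lie on either side of 0 and do not overlap, while a test between the genes could not be made without values of single libraries. Acat1 lies on chromosome 9, 53580522 to 53610382, minus strand, and Acaa2 on chromosome 18, 74779197 to 74806208, plus strand. Hadh, the short-chain hydroxyacyl-CoA dehydrogenase, at 0.015 (SE 0.075), and Echs1, the short-chain hydratase, at -0.0083 (SE 0.091) by the authors' deposited table, were not called. Echs1 turned to 0.055 under that centring on summed group means.

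Hadha and Hadhb encode the alpha and beta subunits of the trifunctional protein, which carries out the last 3 steps of each turn on long chains at the inner membrane. Hadha was called higher, from a derived mean of 12360 in control to 13503 in knockout. The authors' deposited table gave Hadha a log2 fold change of 0.13 (SE 0.050, DESeq2 adjusted p = 0.0471), a 1.09-fold difference, and the call was lost when all 15849 genes with a p-value were adjusted together (adjusted p = 0.051). Hadhb had derived means of 7335 and 8044, and a log2 fold change of 0.13 (SE 0.060, DESeq2 adjusted p = 0.0886) by the authors' deposited table, just outside the threshold. The difference between the subunits, Hadha minus Hadhb, was -0.0056 on the log2 scale, smaller than the SE of either.

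Hadha and Hadhb lie head to head on chromosome 5, with Hadha on the minus strand from 30118304 to 30155162 and Hadhb on the plus strand from 30155248 to 30184593. Their first bases are 86 bases apart in GENCODE M21 and 273 in the RefSeq promoter table (GRCm38.p6). The 85 bases outside both genes in both annotations, chr5:30155163-30155247, are shown because they lie between the starts of 2 genes with nearly equal fold changes. They are written 5′ to 3′ on the plus strand, from RefSeq, with matches to the GC box GGGCGG in capitals, and the stretch has a GC content of 69.4%.
Hadha-Hadhb: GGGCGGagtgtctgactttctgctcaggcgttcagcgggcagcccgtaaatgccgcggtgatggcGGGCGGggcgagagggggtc
The stretch holds 2 GC boxes, at positions 1 to 6 and 66 to 71 of its 85 bases. Other members also start close to a gene on the opposite strand in RefSeq. Hacl1, at 0.11, starts 92 or 99 bases from Btd, at -0.15 (SE 0.080). Acadsb, at -0.0077, starts 123 bases from Ikzf5, at -0.15 (SE 0.11). Etfdh, at -0.012, starts 312 bases from 4930579G24Rik, at 0.023 (SE 0.28). None of these neighbours was called, and whether close starts bear on the fold changes was not tested. In the 250 bases before the start, 26 of the 31 genes had a RefSeq promoter to search, and 18 of them (69.2%) had a GC box on either strand, against 61.4% of 10679 genes. The motif CCAAT on either strand was found in 11 (42.3%), against 40.9% of genes. The DR1 element, a direct repeat of AGGTCA with 1 base between the copies to which PPAR and RXR nuclear receptors bind, was found on neither strand of any of the 26 promoters, nor was a relaxed form with repeats of AGGNCA. Those 2 forms were found in 0.0468% and 0.309% of all genes. The element TNAAGGTCA of the ERR receptors was also found in none of the 26, against 0.805% of genes. At shares this low, finding none among 26 promoters does not set these genes apart from others. Promoters of Crat, Decr1 and the called genes Acat1, Hsd17b4 and Acaa2 were not available to search. All these searches match letters in a short window and say nothing of binding.

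The 4 auxiliary genes, for enzymes that prepare unsaturated acyl chains for beta-oxidation, gave 0 calls by DESeq2, against 23.0% of all genes tested. Of these 4 genes, 0 had an unadjusted p under 0.05. By the authors' deposited table the mitochondrial isomerase gene Eci1 was at -0.14 (SE 0.15) and the mitochondrial dienoyl-CoA reductase gene Decr1 at -0.11 (SE 0.063). Their peroxisomal counterparts Eci2 and Decr2 were at 0.17 (SE 0.10) and -0.083 (SE 0.076) by the authors' deposited table. Eci1 had the widest interval of the mitochondrial genes, from -0.43 to 0.16, at a mean normalized count of 884.

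Peroxisomal beta-oxidation had 2 of 6 genes called higher and 0 lower, against 11.3% and 11.7% of all genes tested. Both called genes encode bifunctional enzymes, each of which performs the hydratase and dehydrogenase steps, with opposite stereochemistry of the intermediate. Ehhadh, the L-bifunctional enzyme, rose from a derived mean of 174 in control to 244 in knockout. Its log2 fold change was 0.48 (SE 0.17, DESeq2 adjusted p = 0.0221) by the authors' deposited table, with an interval from 0.15 to 0.81, the widest of the 31 genes. Hsd17b4, the D-bifunctional enzyme, had derived means of 9537 and 10174 and a log2 fold change of 0.093 (SE 0.036, DESeq2 adjusted p = 0.046) by the authors' deposited table. Hsd17b4 had the smallest SE of the 31, and the change called was 1.07-fold. The call was marginal, with an adjusted p of 0.0499 when all 15849 genes with a p-value were adjusted together. Per kb of transcript, the mean level of Hsd17b4 was 52.4 times that of Ehhadh, so the larger fold change belonged to the scarcer enzyme gene. Ehhadh lies on chromosome 16, 21761287 to 21787807, minus strand, and Hsd17b4 on chromosome 18, 50128201 to 50196269, plus strand.

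The other peroxisomal genes were not called. Abcd3, a half-transporter that brings acyl-CoA into peroxisomes, had derived means of 6336 in control and 6884 in knockout and was at 0.12 (SE 0.075) by the authors' deposited table. Acox3, an oxidase for branched chains, was at -0.082 (SE 0.062) by the authors' deposited table, with derived means of 12334 and 11651. Acaa1a, a peroxisomal thiolase, was at 0.022 (SE 0.059) and Crot, which exports shortened chains as carnitine esters, at -0.046 (SE 0.067) by the authors' deposited table. Crot turned above 0, to 0.017, when fold changes were centred on summed group means. Acaa1b, a close paralog of Acaa1a that is not among the 31 genes, was at 2.40 (SE 0.75) by the authors' deposited table with a mean normalized count of only 6.42, against 6891 for Acaa1a. Reads may be shared between these copies, so the value of Acaa1b is uncertain, and the gene was named after its value was seen. Of the alpha-oxidation genes, which remove a carbon from branched chains, Phyh was at -0.17 (SE 0.091) and Hacl1 at 0.11 (SE 0.14) by the authors' deposited table. By compartment, 3 of 20 mitochondrial genes (15%) were called higher and 1 (5%) lower. Of 10 peroxisomal genes, 2 (20%) were called higher and 0 lower. Over all genes tested, 11.3% were called higher and 11.7% lower.

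Levels of the 31 genes were compared per kb of the longest annotated coding transcript, on the mean normalized count over all libraries. They ran from 70.1 per kb for Ehhadh to 4127 per kb for Cpt1a, a 58.9-fold range, with a median of 2080. Below Cpt1a came Acaa1a at 3911, Hadhb at 3755, Etfb at 3678, Hsd17b4 at 3672 and Acadl at 3333 per kb. The genes lowest per kb after Ehhadh were Hacl1 at 157, Acadsb at 515, Cpt2 at 536 and Decr1 at 564. The 2 carnitine palmitoyltransferases were thus far apart, with Cpt1a at 7.7 times the level of Cpt2, and Acaa2 was at 2.79 times the level of Acat1. The order depends on the transcript length taken, and which transcripts were expressed was not examined. Acadsb, with a longest transcript of 6081 nucleotides, had a mean normalized count of 3134, above the 2908 of Acat1. Acaa2 had a mean of 3606. Without values of single libraries, no spread can be set on this order, and neighbours in it are not distinguished.

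**Figure D2:**
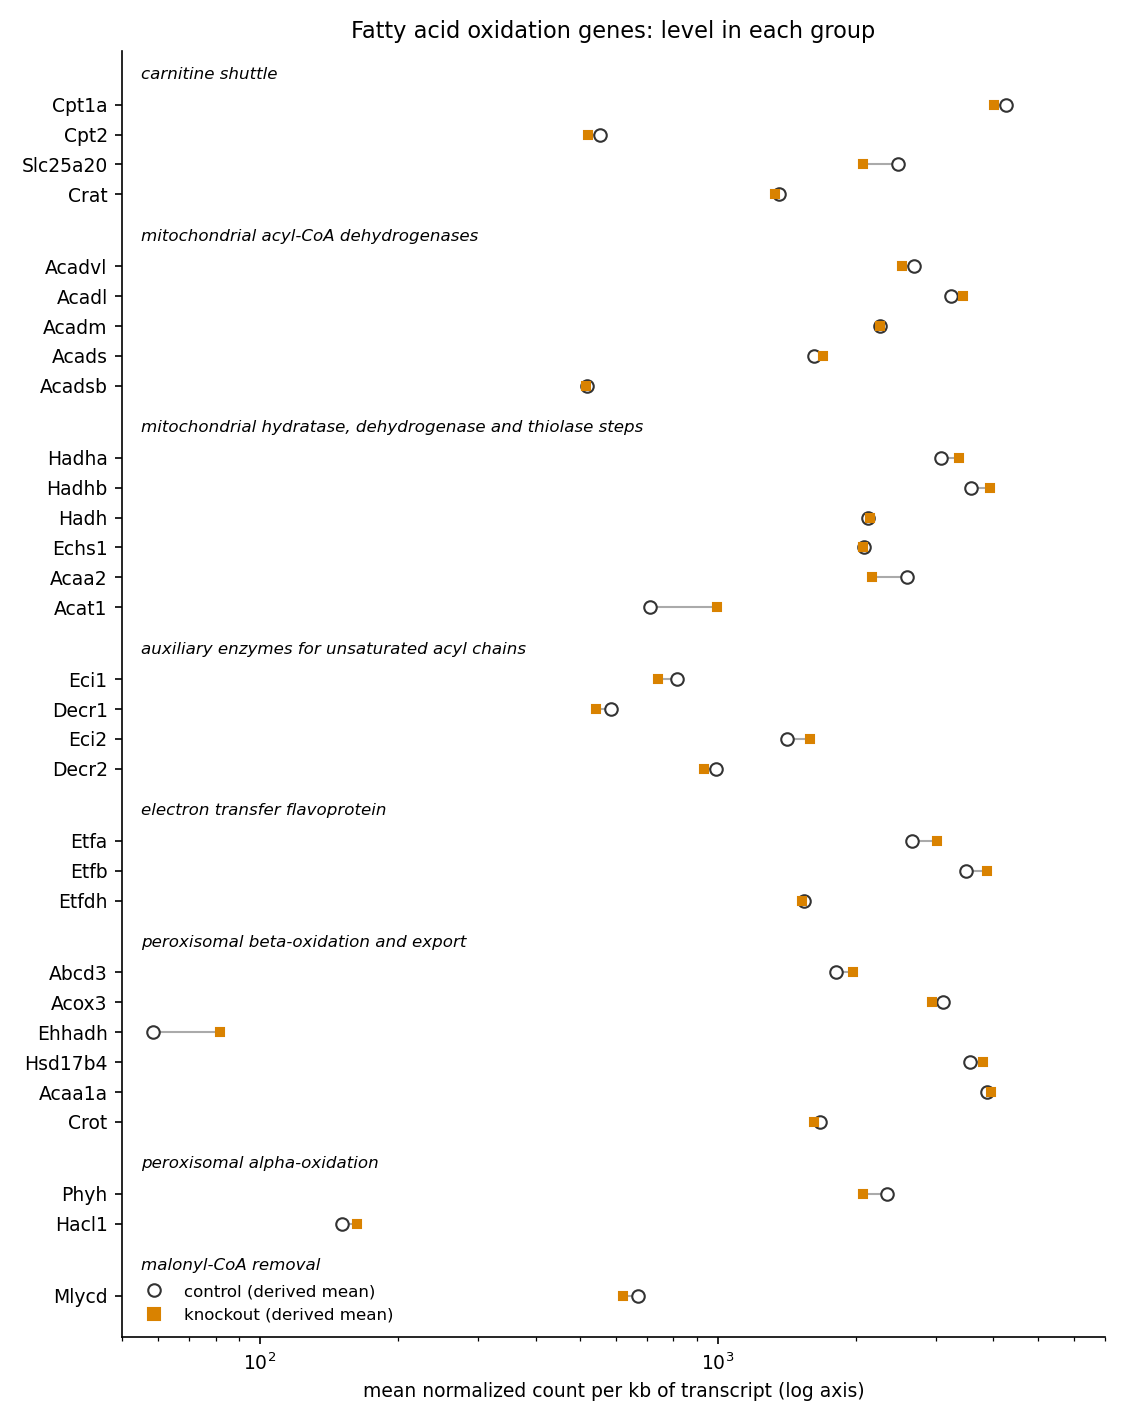
Derived group mean of each of the 31 genes as normalized count per kb of transcript (x axis, log scale), with control as open circles, knockout as filled squares and a line joining them. Levels are lowest for Ehhadh (70.1 per kb over both groups) and highest for Cpt1a (4127 per kb), and the visible gaps between groups are those of Acat1, Ehhadh, Acaa2 and Slc25a20.

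**Figure D3:**
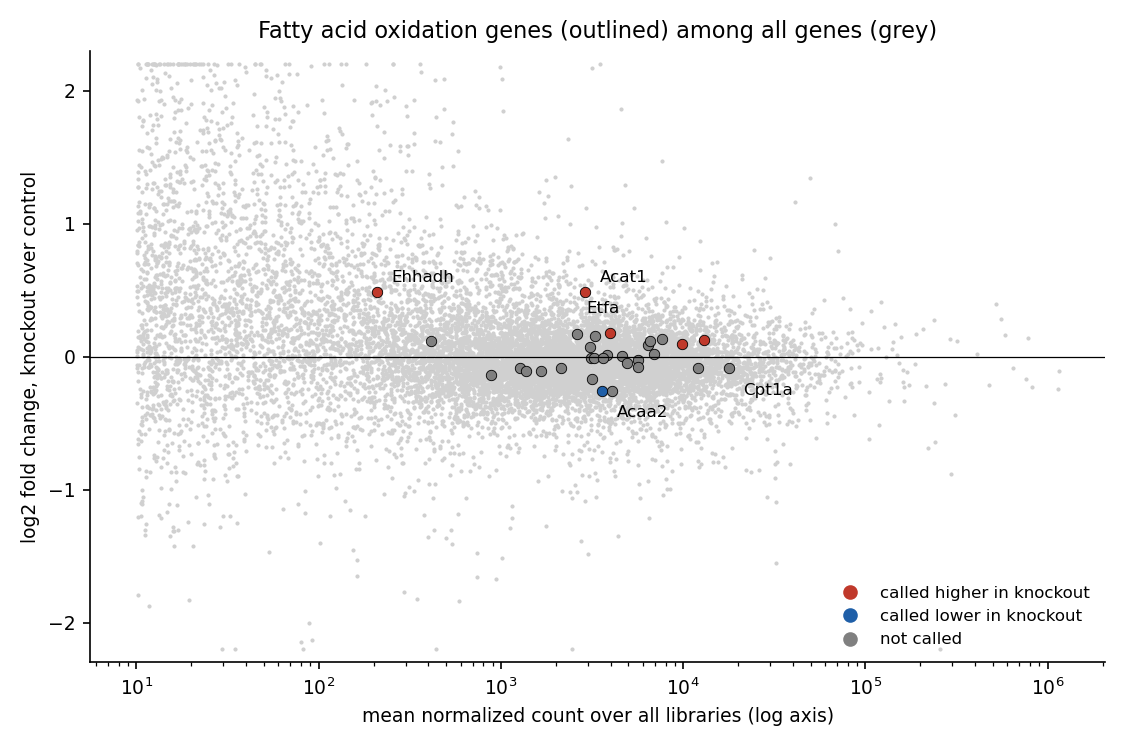
Log2 fold change, knockout over control (y axis), against the mean normalized count over all libraries (x axis, log scale) for all genes with a mean of at least 10 (grey dots, drawn at the edge where beyond 2.2) and the 31 genes (outlined circles). The 31 genes lie between -0.26 and 0.48, and the called genes are named or coloured among them.

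Sites for the deleted miRNAs were searched for in the 3' UTR of each gene, taking the longest one annotated, since transcripts with such sites are candidates for direct regulation. A site is a match to the seed, bases 2 to 8 of the miRNA. An 8-nucleotide match pairs with bases 2 to 8 and has an A opposite base 1, and a 7-nucleotide match lacks either that A or the pair at base 8. The mature sequences, from the RefSeq miRNA table (GRCm38.p6), are shown 5′ to 3′ with the seed in capitals, because the seed defines the sites below. The 2 miR-27 species share a seed, and miR-23 and miR-27 share its first 5 bases.
mmu-miR-23a-3p: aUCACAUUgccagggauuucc
mmu-miR-27a-3p: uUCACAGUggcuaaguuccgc
mmu-miR-27b-3p: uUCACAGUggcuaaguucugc
mmu-miR-24-3p: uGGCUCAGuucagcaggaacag

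Of the 31 genes, 10 (32.3%) had at least 1 match, against 53.4% of the 13074 genes searched. The 3' UTRs of the 31 were also shorter, with a median of 595 nucleotides against 1166. Matches of miR-23 were found in 5 genes, of miR-27 in 6 and of miR-24 in 4. Only 1 gene, Hadha, held an 8-nucleotide match (3.23%, against 19.5% of all genes). Among the 10 genes with a match, 3 were called higher (Hadha, Acat1 and Hsd17b4) and 0 lower, with a median log2 fold change of -0.017. Among the 21 without, 2 were called higher and 1 lower, with a median of 0.015. In all genes, 14.8% of those with a match were called higher, against 8.96% of those without, and 10.6% were called lower, against 14.9%. Genes with and without a match were not matched for 3' UTR length, and whether the matches bear on these shares was not tested.

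The matches of Hadha and Acat1 are shown with up to 10 bases on either side, because these are called genes with a match, and 1 match of Crat is shown beside them because it has the same letters as a match of Acat1. Each lies in the last exon, and the capitals are the match. Hadha has an 8-nucleotide miR-27 match (chr5:30119625-30119652 as shown, minus strand, exon 20) and a 7-nucleotide match of miR-27 at the end of its UTR (chr5:30118304-30118326). Acat1 has 7-nucleotide miR-23 matches at chr9:53582485-53582511 and chr9:53581688-53581714, minus strand, exon 12. The Crat match to miR-23 is at chr2:30401966-30401992, minus strand, exon 15.
Hadha-miR-27-first: gtgaagtctgACTGTGAAttaactgttt
Hadha-miR-27-second: tcattaaacaACTGTGAgaagac
Acat1-miR-23-first: ggctgaagtaAATGTGActcccttggg
Acat1-miR-23-second: aaataaagttATGTGAAtgaaaatttt
Crat-miR-23: atggtggtatAATGTGAttatgccagg
Crat had the most matches, 6 in all (1 for miR-23, 1 for miR-27 and 4 for miR-24), and Acadsb had 5, each of 7 nucleotides. Their log2 fold changes by the authors' deposited table were -0.027 and -0.0077. Acat1, with 2 matches, was at 0.48 by the authors' deposited table, as was Ehhadh, in which no match was found. The 3' UTRs searched differed in length, at 2107 nucleotides for Crat, 4637 for Acadsb, 2023 for Acat1 and 797 for Ehhadh. Whether the number of matches bears on the fold changes was not tested. None of the 31 genes lies near an altered locus: the nearest to Mirc11 is Mlycd, 35.2 Mb away on chromosome 8, the nearest to Mirc22 is Eci2, 28.3 Mb away on chromosome 13, and none is on chromosome 10 with Lyz2.

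Other genes of the pathway, listed by function, also went in both directions. Of 29 other mitochondrial oxidation and carnitine genes with an adjusted p, 7 (24.1%) were called higher and 2 (6.90%) lower, with a median log2 fold change of 0.076. The shares over all genes tested were 11.3% higher and 11.7% lower. Acad10, a member of the acyl-CoA dehydrogenase family, was at 0.52 (SE 0.087), Ivd, isovaleryl-CoA dehydrogenase of leucine breakdown, at 0.25 (SE 0.056) and Ech1, a dienoyl-CoA isomerase, at 0.18 (SE 0.046) by the authors' deposited table. Acot9, a mitochondrial acyl-CoA thioesterase, was lower, at -0.33 (SE 0.055) by the authors' deposited table. Of 23 other peroxisomal genes, 5 (21.7%) were called higher and 3 (13.0%) lower, against the same 11.3% and 11.7%, with a median of -0.034. Ech1 stands in both lists and is counted in each. Cat, catalase, which removes the peroxide made by the oxidases, was at 0.45 (SE 0.092) with a mean normalized count of 23844 by the authors' deposited table. Gnpat, of ether lipid synthesis, was higher, at 0.22 (SE 0.044) by the authors' deposited table.

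Of 16 peroxins, which build peroxisomes, 1 (6.25%) was called higher and 2 (12.5%) lower, with a median of 0.0071, against 11.3% and 11.7% of all genes. Pex5, the import receptor, was at -0.19 (SE 0.068) and Pex19, the chaperone of membrane proteins, at -0.16 (SE 0.046) by the authors' deposited table. Of 13 ketone body and propionyl-CoA genes, 1 was called higher and 1 lower (7.69% each). Mmab, of cobalamin metabolism, was at 0.28 (SE 0.089) and Bdh1, which interconverts the ketone bodies, at -0.59 (SE 0.19) by the authors' deposited table, so Bdh1 and Acat1 moved in opposite directions.

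Regulators of the pathway had 3 of 33 genes called higher (9.09%) and 5 lower (15.2%), near the 11.3% and 11.7% of all genes, with a median of 0.0077. Pdk4, a kinase that turns off pyruvate dehydrogenase, was at 1.61 (SE 0.31, DESeq2 adjusted p = 4.55e-06) by the authors' deposited table, at a mean normalized count of only 45.0. Esrra, the nuclear receptor ERR alpha, which drives genes of mitochondrial oxidation, was lower, at -0.33 (SE 0.085, DESeq2 adjusted p = 0.001) by the authors' deposited table. Tfeb, a lysosomal transcription factor that also regulates lipid breakdown, was at -0.33 (SE 0.061) and Stk11, the kinase upstream of AMPK, at -0.21 (SE 0.051) by the authors' deposited table. Ppara was not analysed here.

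**Figure D4:**
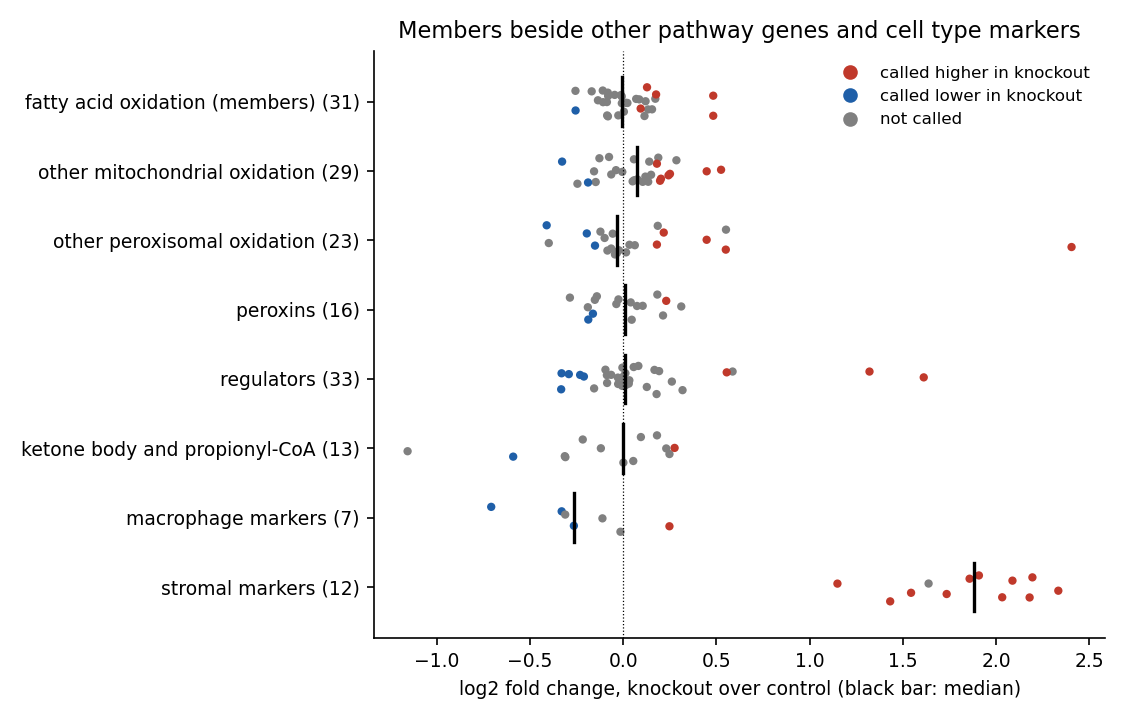
Log2 fold change, knockout over control (x axis), of each gene in the 31 members, 5 lists of other pathway genes and the macrophage and stromal markers (rows, number of genes in brackets, Lyz2 left out of the macrophage row), with a black bar at each median. The members and pathway lists centre near 0, and the stromal markers lie between 1.15 and 2.33.

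The macrophage label was checked against marker genes. Csf1r, the M-CSF receptor, had a mean normalized count of 163291 and Adgre1, which encodes F4/80, 144462 by the authors' deposited table. Both differed between the groups, Csf1r at -0.33 (SE 0.089) and Adgre1 at 0.25 (SE 0.069) by the authors' deposited table. Of 8 macrophage markers, Lyz2 included, 1 was called higher and 4 lower, with a median log2 fold change of -0.29. The others called lower, besides Lyz2 and Csf1r, were Cd68 at -0.26 (SE 0.070) and Fcgr1 at -0.71 (SE 0.24) by the authors' deposited table, named after their values were seen. The part of the macrophage markers' differences in the results for the 31 genes was not tested. Stromal and fibroblast markers differed between the groups. Of the 12 with an adjusted p, 11 were called higher and 0 lower. Their median log2 fold change was 1.88, and their summed derived means were 1827 in control and 6769 in knockout. Sparc, Col1a1 and Col1a2 were at 1.54 (SE 0.24), 2.09 (SE 0.30) and 2.18 (SE 0.27) by the authors' deposited table. Lum, of the same list, was not analysed here. Of the adipocyte, granulocyte, T cell, B cell and dendritic cell markers with an adjusted p (1, 1, 2, 2 and 3 genes), 0 were called by DESeq2, and 1, the B cell gene Cd79b, had an unadjusted p under 0.05. The erythroid markers listed were not analysed here.

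**Figure D5:**
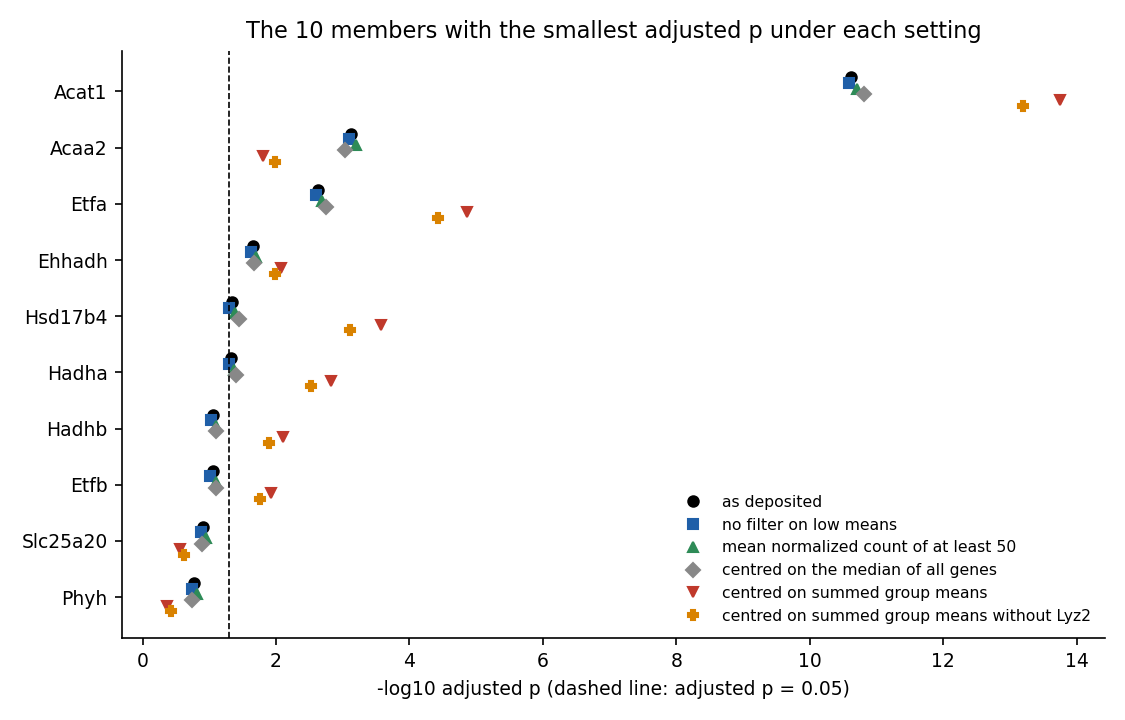
Adjusted p of the 10 members with the smallest adjusted p, as -log10 (x axis), under the authors' analysis and 5 other settings (symbols), with a dashed line at 0.05. Acat1, Acaa2, Etfa and Ehhadh stay right of the line in each, as does Hsd17b4, though barely without a filter (adjusted p = 0.0499). Hadha crosses the line without a filter, and Hadhb and Etfb cross it when fold changes are centred on summed group means.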

How the data were processed

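Polyadenylated RNA of 8 libraries (4 control, 4 knockout) was sequenced. The tools DESeq2, Salmon, cutadapt and FastQC and the build mm10 are named, per the submitters' processing notes, with no version, role or setting given in the sources used here. Per the file headers, the deposited comparison holds, for each gene, the signal (the authors' mean normalized count), the authors' log2 fold change and its SE, the Wald score and the authors' p-value and adjusted p-value. The deposited score equals the log2 fold change over its SE to within 1.1e-07, and a recomputed Benjamini-Hochberg adjustment of the deposited p-values differed by at most 5.7e-09. Of 15853 genes, 14619 had an adjusted p and 15849 a p-value.

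A deposited table of normalized values has 8 columns that match no sample label. They were not used, so depth per library is unknown and no replicate-level check was made. Intervals at 95% are the log2 fold change plus or minus the normal quantile times the SE. Positions and 3' UTRs came from GENCODE M21, in which 15187 genes matched 1 gene by symbol. Whether counting used strand is not given; exons of Crat, Acadvl, Echs1, Etfdh, Acaa1a and Hacl1 overlap a measured gene on the opposite strand, so their values could include its reads.

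The members and lists were chosen with earlier results of these data known. All 31 members were given; of each pathway list, up to 4 called genes with the smallest adjusted p; of the macrophage and stromal markers, up to 3 with the highest mean; and Lyz2. Values of some genes that this rule names are not reported here. The ERR element, CCAAT and GC box searches, the 7-nucleotide sites shown and the Crat site were chosen after seeing the data. Alternatives were other filters, centrings, a stricter threshold, 8-nucleotide sites, all 3' UTRs and a relaxed motif. Analyses used Python 3.11.15, pandas 2.3.3 and scipy 1.17.1. The calls, the adjustment of p-values and the centring were tested on simulated data, and the sequence searches were not.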

Additional observations from a re-analysis of the deposited data

How the results depend on the processing

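No paired analysis was possible because no column of single-library values could be matched to a replicate, and refits without single libraries were not possible for the same reason. The stricter threshold of 0.01 left 2 of the 31 genes called higher, Acat1 and Etfa, and Acaa2 was still called lower. These are 6.45% higher and 3.23% lower. In all, 1047 genes (7.16%) were higher and 1009 (6.9%) lower. Genes called lower in all fell to 960 when fold changes were centred on summed group means and 1045 with Lyz2 left out of the sums, which follows from the shift itself. Of the 31 genes, 31 kept their call at a mean of at least 50 and with centring on the median of all genes. Without a filter 30 did, and Hadha did not (adjusted p = 0.051). With centring on summed group means 29 did, and 2 gained a call: Hadhb (adjusted p = 0.00778) and Etfb (adjusted p = 0.0117), or 0.0128 and 0.0177 without Lyz2. The median of the 31 log2 fold changes ran from -0.0077 to 0.055. The 8-nucleotide sites alone left 1 gene with a match in place of 10, and all annotated 3' UTRs left 10. Depth per library is unknown, so what depth limits could not be given beyond the SE of each gene.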
